A study of Danio rerio with 9 samples.

Results

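Splicing factor genes were followed in 9 zebrafish melanomas. They were taken as every row of the count tables whose symbol begins with srsf, hnrnp, sf3a, sf3b, snrp or prpf followed by a letter or digit, and that held at least 90 reads over the 9 tumours. This gave 72 of the 30649 named rows. All 72 symbols that fitted the pattern passed the minimum, the lowest being hnrnpa3 with 110 reads and srsf7b with 247. They fell into 17 genes of SR proteins, 21 of hnRNP proteins, 9 of the SF3A and SF3B complexes, 12 of Sm and other snRNP proteins and 13 of PRPF proteins. All 72 also passed the filter on low counts and were tested. Symbols that begin with snrnp, such as snrnp70 and snrnp200, are not caught by the pattern and were counted with the other splicing genes.

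Introns are removed by the spliceosome, a machine of small nuclear ribonucleoproteins (snRNPs) and many other proteins that assembles anew on each intron. Sm proteins form a ring around the spliceosomal small nuclear RNAs, SF3A and SF3B belong to the U2 snRNP that holds the branch point, and several PRPF proteins belong to the U4/U6 and U5 snRNPs that bring in the catalytic centre. SR proteins bind RNA through RNA recognition motifs and recruit the spliceosome through a tail rich in arginine and serine, whereas hnRNP proteins coat nascent RNA and often oppose the use of an exon. CDK13 carries an arginine- and serine-rich stretch of its own, and with cyclin K it phosphorylates the tail of RNA polymerase II, on which splicing largely takes place during transcription.

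In 5 tumours the injected MiniCoopR vector carried CDK13 R860Q, a mutant of the kinase. In the other 4 tumours it carried EGFP, and CDK13 was labelled wild-type. All fish were p53-/- and Na-/- and bore mitfa:BRAFV600E, in which the promoter of the melanocyte gene mitfa drives the oncogene. The vector had been injected at 20 ng per µL into one-cell embryos together with tol2 RNA, which lets it integrate into the genome. Fish were kept at 20 per tank and raised lesions were dissected. No tumours with added wild-type CDK13 were among the samples, so the mutation and added CDK13 cannot be told apart, and the labels give neither the age of the fish nor the fish of each tumour. P-values therefore reflect only how these 9 samples vary.

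Libraries of ribosome-depleted total RNA held 7252950 to 11150732 counted reads in R860Q tumours and 5518472 to 15120176 in EGFP tumours. The row for human CDK13 held 114 to 7239 reads in R860Q tumours and 0 to 5 in EGFP tumours, as the labels say. The EGFP libraries did not form a uniform group. EGFP R162 and R164 stood apart from the rest on the first principal component of all genes (-102 and -57.2, against -7.56 to 48.9). EGFP R163 and R165 had 0 reads on the row for 5.8S ribosomal RNA, against 367 to 574 in R860Q tumours, 309 in EGFP R162 and 42 in EGFP R164. EGFP R163 and R165 were also the 2 libraries with the highest totals, at 11206732 and 15120176 reads, though R860Q R157 came close to the former at 11150732. Of the 16 melanocyte markers in the files 15 were tested, and their summed level was 3933 to 16480.1 normalised CPM in R860Q tumours and 6556 to 13688 in EGFP tumours, so that all 9 samples carried pigment cell RNA. Normalised CPM are counts per 1000000 of library size after TMM scaling. They are not corrected for gene length, so levels are compared here between tumours and not between genes. The TMM factors were 0.87 to 1.21 in R860Q tumours, 0.65 in EGFP R162 and 1.09 to 1.25 in the other EGFP tumours. A low factor raises normalised CPM. In EGFP R162 the splicing factor genes held 0.350% of counted reads, the lowest share of the EGFP tumours. Their summed normalised level there was the highest of the 9, at 5407 CPM. High levels of single genes in EGFP R162 therefore depend in part on this factor.

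No splicing factor gene passed the test between the groups. Of the 72 genes, edgeR's quasi-likelihood test called 0 after Benjamini-Hochberg adjustment over all 15169 tested genes, where the share called among all of them was 0% as well. DESeq2 and limma voom also called 0 of the 72, although DESeq2 called 0.448% of all genes. At an unadjusted p under 0.05 there were 2 of the 72 (2.78%), hnrnpa3 and hnrnpua, both higher in R860Q tumours, against 6.14% of all tested genes (1.99% higher and 4.15% lower). DESeq2 gave the same 2 genes at that p, against 7.46% of all genes. In place of hnrnpua, voom had hnrnpa0b, and the fits with a muscle score or without EGFP R163 and R165 had snrpd2, which was lower. With no filter on low counts hnrnpa3 was the only gene of the 72 at that p. The same 2 genes were those in which every R860Q tumour lay above every EGFP tumour, against 1.43% of all genes with ranges that did not overlap (0.626% above and 0.804% below). The share of 2.78% lies below that of all genes at that p in either direction and above that of all genes higher at that p. It rests on 2 genes, and hnrnpa3 passed the low-count filter only through the R860Q tumours, where it was higher. Neither this share nor the count of separate ranges is therefore read as a result about the members. The median log2 fold change was 0.05 over the splicing factor genes and -0.03 over all tested genes, with 42 genes above and 30 below 0. In 46 of the 72 genes the 95% interval of the log2 fold change lay wholly within a 2-fold difference either way, as it did for 5725 of the 15169 tested genes.

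**Figure D1:**
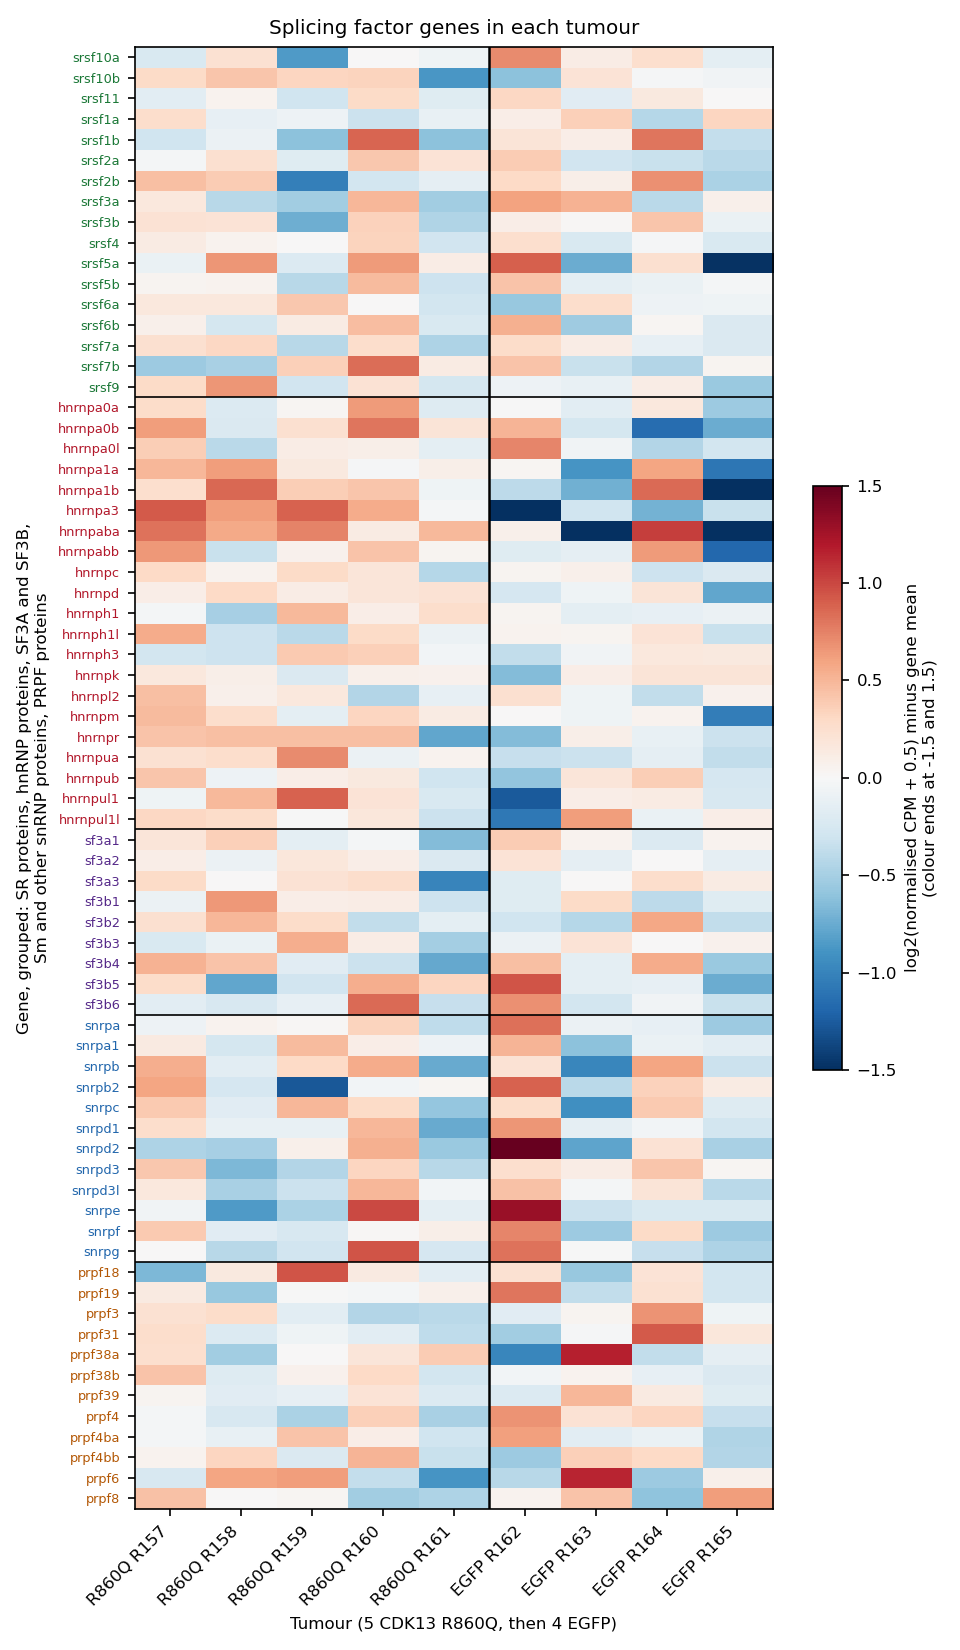
Each row is 1 of 71 of the splicing factor genes, grouped by family, and each column 1 tumour, the 5 CDK13 R860Q tumours left of the 4 EGFP tumours. Colour gives log2(normalised CPM + 0.5) minus the mean of the gene over the 9 tumours. The hnRNP rows are mostly red in R860Q tumours and blue in EGFP R165, and most snRNP rows are reddest in EGFP R162.

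The hnRNP genes were the family in which most members lay on the same side. Of 21 genes, 20 had a log2 fold change above 0, where 47.2% of all tested genes did, and the median was 0.29. The 20 include hnrnpa3, which passed the low-count filter only through the R860Q tumours, where it was higher. Only hnrnpa3 and hnrnpua of the 21 (9.52%) had a 95% interval that excluded 0, against 931 of the 15169 tested genes (6.14%). The interval comes from the same test as p, so this count repeats that at an unadjusted p under 0.05. That share rests on 2 genes and is not read as a result about the family. The mean of the family's log2 CPM about its average over the 9 tumours was 0.37, 0.13, 0.27, 0.25 and -0.05 in R860Q R157 to R161, and -0.31, -0.18, 0.05 and -0.53 in EGFP R162 to R165. The groups overlapped, since R860Q R161 lay below EGFP R164. The median depended on which EGFP libraries were used: it was 0.13 without EGFP R163 and R165, with 16 of 21 genes above 0, and 0.48 without EGFP R164. No p is given for the family, which was singled out with its values known.

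Among the hnRNP genes, hnrnpua codes for a nuclear matrix protein that binds RNA and chromatin. It had 86.4, 89.0, 121, 69.8 and 76.5 normalised CPM in R860Q R157 to R161, against 58.2, 59.2, 67.4 and 57.0 in EGFP tumours R162 to R165. Its ranges did not overlap, though R860Q R160 lay only just above EGFP R164, and its EGFP tumours were close to each other. The log2 fold change was 0.55 ± 0.24 (SE), with a 95% interval of 0.03 to 1.07 and an edgeR adjusted p of 0.795. Its partner hnrnpub stood at 209.6 ± 38.3 CPM over the 5 R860Q tumours (SD) and 196 ± 56.4 over the 4 EGFP tumours (SD; log2 fold change 0.10 ± 0.29 SE).

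The gene hnrnpa3, of the A/B family that binds exonic silencers, was read rarely in every tumour. Its span overlaps that of nfe2l2a in the RefSeq annotation of GRCz12tu, so the source of its few reads is uncertain. It had 32, 18, 16, 12 and 7 reads in R860Q R157 to R161, against 0, 9, 3 and 13 in EGFP R162 to R165, and the 0 in EGFP R162 sets a limit of 0.734 CPM (3 counts, by counting error alone). At 2.39, 1.87, 2.33, 1.74 and 0.995 CPM in R860Q tumours against 0, 0.742, 0.437 and 0.711 CPM in EGFP tumours the ranges did not overlap, and the highest EGFP value lay close to the lowest R860Q value. The gene passed the low-count filter only through the R860Q tumours, where it was higher, and did not pass it when any 1 of R860Q R157 to R160 was left out. Its place among the genes with a small p or separate ranges therefore supports nothing about the family. The log2 fold change was 1.80 ± 0.59 (SE), with an edgeR adjusted p of 0.680. It was 2.80 without EGFP R163 and R165, and without any of the other single tumours the log2 fold change was 1.53 to 2.03.

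The hnRNP genes hnrnpaba, hnrnpa1a and hnrnpa1b split the EGFP tumours. The gene hnrnpaba, coding for a protein that binds single-stranded nucleic acid, had 133, 112, 127, 82.6 and 106 CPM in R860Q R157 to R161, against 79.98, 20.7, 155 and 18.3 CPM in EGFP R162 to R165. EGFP R163 and R165 were far below all other tumours, while EGFP R164 was the highest of the 9. EGFP R162 lay just below the lowest R860Q tumour. The log2 fold change of 0.71 ± 0.58 (SE; edgeR adjusted p = 0.938) became 1.51 without EGFP R164 and -0.07 without EGFP R163 and R165.

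The paired genes hnrnpa1a and hnrnpa1b, the fish counterparts of the exon-silencing hnRNP A1, had the same low tumours. The level of hnrnpa1a was 23.3, 25.4, 18.1, 16.1 and 17.3 CPM in R860Q R157 to R161, against 16.6, 8.57, 24.9 and 7.43 CPM in EGFP R162 to R165. That of hnrnpa1b was 30.1, 46.1, 32.8, 33.7 and 24.2 CPM in R860Q tumours, against 19.1, 15.2, 45.8 and 8.20 CPM in EGFP tumours. In both genes EGFP R164 reached the highest R860Q values or nearly so, and EGFP R163 and R165 lay below every R860Q tumour. For hnrnpa1b EGFP R162 lay below every R860Q tumour as well. Their log2 fold changes were 0.49 ± 0.37 and 0.60 ± 0.44 (SE), and 0.90 and 1.25 without EGFP R164. Without EGFP R163 and R165 they were -0.06 for hnrnpa1a and 0.03 for hnrnpa1b. EGFP R163 and R165 differ from the other libraries in having no 5.8S reads, and a technical part in these low values was not tested.

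The remaining hnRNP genes with the smaller p-values had fold changes above 0 without passing. They were hnrnpa0b (log2 fold change 0.70 ± 0.38 SE), hnrnpul1 (0.54 ± 0.35), hnrnpr (0.50 ± 0.30), hnrnpm (0.43 ± 0.27) and hnrnpd, the AU-rich element binding protein (0.37 ± 0.24), with edgeR adjusted p between 0.891 and 0.925. The gene hnrnpr had 28.5, 29.0, 29.0, 28.9 and 12.1 CPM in R860Q R157 to R161, against 13.2, 22.5, 19.5 and 16.7 CPM in EGFP R162 to R165. Its R860Q values were nearly equal in 4 tumours, and R860Q R161 lay below every EGFP tumour. In hnrnpd the R860Q tumours were again close together, at 42.3 ± 2.43 CPM (SD, n = 5), against 32.7 ± 8.89 CPM in EGFP tumours (SD, n = 4), but EGFP R164 at 42.6 CPM was within their range. The gene hnrnpa0l, whose log2 fold change of -0.04 ± 0.33 (SE) was the only 1 of the family below 0, had 504 ± 100.0 CPM over the 5 R860Q tumours (SD) and 519 ± 208 over the 4 EGFP tumours (SD), with 823 CPM in EGFP R162. Spans of hnrnpa0l and hnrnpa0b overlap in the RefSeq annotation of GRCz12tu, so the split of reads between these neighbours is uncertain.

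**Figure D2:**
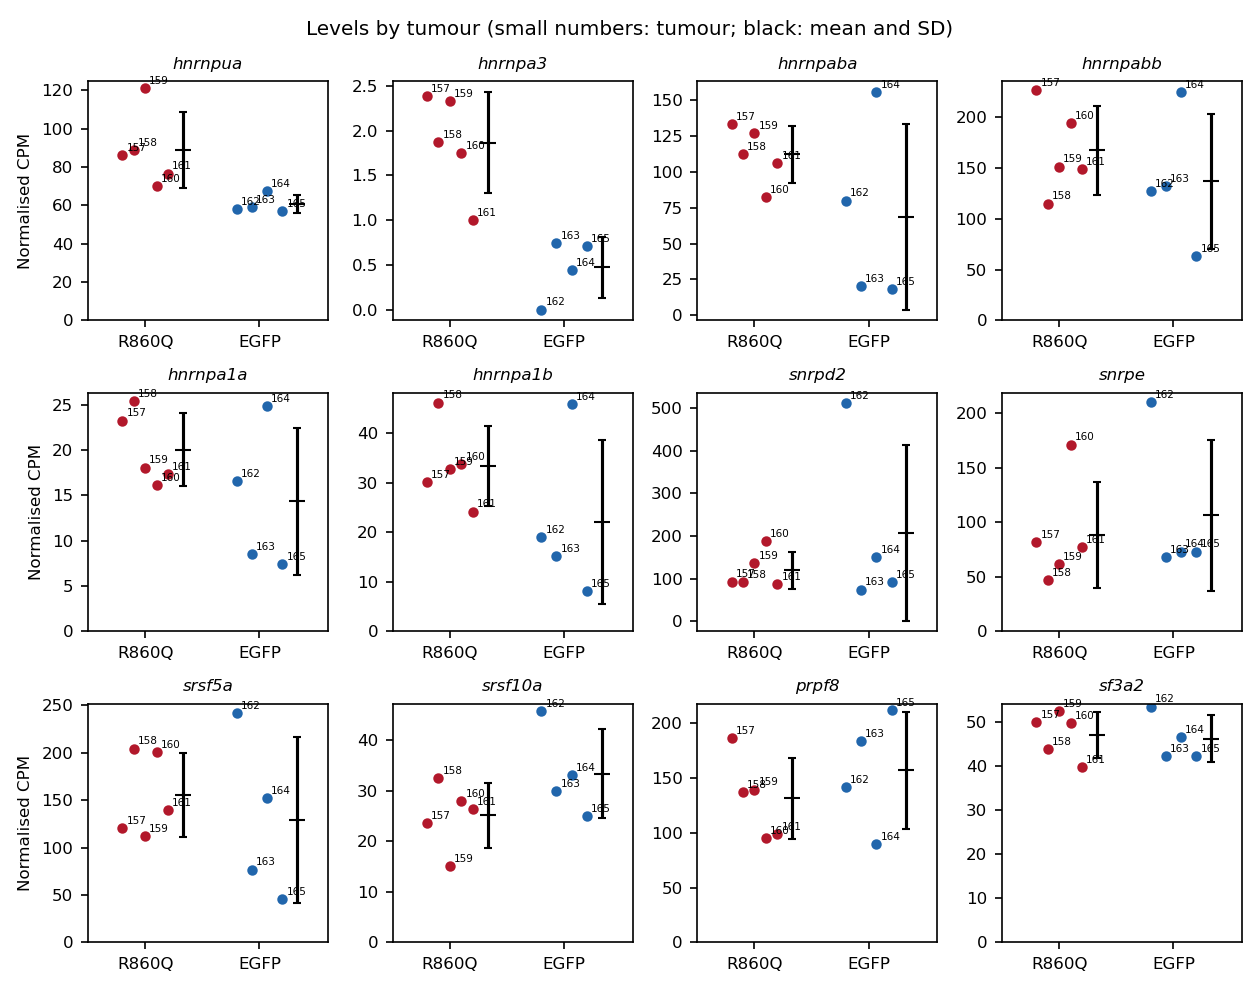
Normalised CPM of 12 splicing factor genes in each tumour, CDK13 R860Q in red and left of EGFP in blue, with the number of each tumour beside its point and the mean and SD in black. EGFP R163 and R165 are the low EGFP points of hnrnpaba, hnrnpa1a and hnrnpa1b, and EGFP R162 is the high EGFP point of snrpd2 and snrpe.

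The side on which the genes of Sm and other snRNP proteins lay turned with single EGFP libraries and shifted with the muscle score. Of 12 log2 fold changes 4 were above and 8 below 0, and their median was -0.08. Without EGFP R162 10 of the 12 were above 0 and the median was 0.25, and without EGFP R163 it was 0 of 12 and -0.15. With the muscle score of each tumour in the fit it was 1 of 12 and -0.26. That score set EGFP R162 (2.94) apart from the other EGFP tumours (-3.12 to -2.65), so muscle and this library cannot be told apart within the group. EGFP R162 held the highest level of the 9 tumours in 7 of the 12 genes and the lowest in 0. These ranks depend in part on its low TMM factor (0.65). Before scaling, snrpe held 861 of 6317580 counted reads in EGFP R162, against 1179 of 7252950 in R860Q R160. For snrpd2 the reads in these libraries were 2087 and 1287. Across all tested genes EGFP R162 was the highest tumour in 17.9% and the lowest in 19.0%.

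Within this family the widest range was that of snrpd2, coding for the Sm ring protein D2. Its level was 93.2, 91.0, 136, 187 and 87.4 CPM in R860Q R157 to R161, against 510.4, 74.4, 150.2 and 92.2 CPM in EGFP R162 to R165. EGFP R162 alone stood above the R860Q range, and EGFP R163 stood below it. The log2 fold change was -0.80 ± 0.55 (SE; edgeR adjusted p = 0.933), and 0.17 without EGFP R162. The ring protein gene snrpe followed with 82.3, 47.4, 61.8, 171 and 77.6 CPM in R860Q R157 to R161, against 211, 68.4, 73.3 and 73.2 CPM in EGFP R162 to R165. Here R860Q R160 and EGFP R162 were the 2 high tumours, 1 in each group, and the log2 fold change of -0.27 ± 0.46 (SE) was 0.30 without EGFP R162 and -0.66 without R860Q R160.

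The same 2 tumours were the highest for snrpg, another protein of the ring, at 208 CPM in R860Q R160 and 191 CPM in EGFP R162, against 80.5 to 108 CPM in the other R860Q tumours and 77.8 to 108 CPM in the other EGFP tumours. The group means of snrpg were 115 ± 53.0 CPM over the 5 R860Q tumours (SD) and 115 ± 51.9 over the 4 EGFP tumours (SD). The gene snrpd1 reached 145 CPM in R860Q R160 and 162.4 CPM in EGFP R162 as well, with 103 ± 32.0 CPM over the 5 R860Q tumours (SD) and 109.8 ± 35.6 over the 4 EGFP tumours (SD). By contrast snrpb, coding for the Sm protein B, was highest in EGFP R164 at 99.4 CPM and lowest in EGFP R163 at 32.9 CPM, with 38.7 to 96.8 CPM in R860Q tumours. The gene snrpb2, coding for a protein of the U2 snRNP, stood at 9.36 ± 4.07 CPM over the 5 R860Q tumours (SD) and 12.4 ± 4.71 over the 4 EGFP tumours (SD; log2 fold change -0.39 ± 0.40 SE, edgeR adjusted p = 0.941). The ring protein gene snrpd3 stood at 27.5 ± 9.63 CPM over the 5 R860Q tumours (SD) and 34.1 ± 4.11 over the 4 EGFP tumours (SD; -0.31 ± 0.28 SE).

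Genes of SR proteins lay evenly about 0, with 9 log2 fold changes above it, 8 below it and a median of 0.01. The range ran from -0.41 to 0.31, narrower than in any other family but SF3A and SF3B. At its lower end was srsf10a, coding for an SR protein that represses splicing when dephosphorylated, with 23.6, 32.6, 15.2, 27.9 and 26.4 CPM in R860Q R157 to R161, against 45.7, 29.9, 33.03 and 24.9 CPM in EGFP R162 to R165. EGFP R162 was the highest and R860Q R159 the lowest tumour, and the log2 fold change was -0.41 ± 0.28 (SE; edgeR adjusted p = 0.931). Next was srsf3a, whose human counterpart is the smallest SR protein, at 41.4 ± 14.3 CPM over the 5 R860Q tumours (SD) and 53.0 ± 15.8 over the 4 EGFP tumours (SD; -0.35 ± 0.31 SE). At the upper end srsf9 stood at 41.3 ± 11.8 CPM over the 5 R860Q tumours (SD) and 33.3 ± 6.21 over the 4 EGFP tumours (SD; 0.31 ± 0.27 SE).

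The exon enhancer binding factor srsf1a had 163.5, 125, 129, 108 and 126 CPM in R860Q R157 to R161, against 146, 174, 101 and 170.4 CPM in EGFP R162 to R165. Each R860Q tumour lay within the EGFP range, and the log2 fold change was -0.18 ± 0.26 (SE; edgeR adjusted p = 0.968). The gene srsf5a varied much more, with 121, 204, 112, 201 and 139 CPM in R860Q R157 to R161, against 242, 76.8, 153 and 45.8 CPM in EGFP R162 to R165. The EGFP tumours spanned the whole range, EGFP R163 and R165 being the lowest of the 9, and the log2 fold change of 0.27 ± 0.45 (SE) was -0.02 without EGFP R165 and 0.76 without EGFP R162. R860Q R159 was the lowest tumour in 6 of the 17 SR genes, against 12.4% of all tested genes. R860Q R160 was the highest in 5 and EGFP R162 in as many, against 9.35% and 17.9% of all tested genes.

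The SF3A and SF3B genes, which code for the part of the U2 snRNP that grips the branch point, differed least between the groups. Their log2 fold changes ran from -0.12 to 0.22, 4 of them above 0, and for all 9 the 95% interval lay within a 2-fold difference. The gene sf3b1, whose human counterpart is recurrently mutated in uveal melanoma and myelodysplasia, had 140.0, 233, 159.6, 160.7 and 119.8 CPM in R860Q R157 to R161, against 132, 181, 113 and 131 CPM in EGFP R162 to R165. The groups overlapped, R860Q R158 being the highest and EGFP R164 the lowest tumour, and the log2 fold change was 0.22 ± 0.28 (SE; edgeR adjusted p = 0.961). R860Q R161 was the lowest of the 9 tumours in 6 of the 9 genes, against 11.3% of all tested genes. There sf3a3 was at 25.6 CPM, against 51.3 to 62.3 CPM in the other R860Q tumours and 45.2 to 61.7 CPM in EGFP tumours. Without R860Q R161, 8 of the 9 were above 0 and the median was 0.09.

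Of 13 PRPF genes 5 had log2 fold changes above 0, and the median was -0.13. The members of the U4/U6 snRNP had fold changes below 0, and prpf4 had 17.3 ± 4.601 CPM over the 5 R860Q tumours (SD) and 23.0 ± 6.53 over the 4 EGFP tumours (SD; -0.41 ± 0.28 SE). For prpf3 the values were 22.6 ± 5.47 CPM over the 5 R860Q tumours (SD) and 26.5 ± 7.86 over the 4 EGFP tumours (SD; -0.23 ± 0.27 SE). For prpf31 they were 10.02 ± 1.82 CPM over the 5 R860Q tumours (SD) and 12.7 ± 5.68 over the 4 EGFP tumours (SD; -0.34 ± 0.31 SE), and EGFP R164 was the highest tumour for both prpf3 and prpf31, without which their log2 fold changes were -0.01 each.

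The scaffold of the catalytic centre, prpf8, had 186, 137, 139, 95.2 and 98.8 CPM in R860Q R157 to R161, against 142, 184, 89.9 and 212 CPM in EGFP R162 to R165. The EGFP tumours held both the lowest and the highest value, and the log2 fold change was -0.26 ± 0.32 (SE; edgeR adjusted p = 0.962). Its U5 partner prpf6 ranged from 44.9 to 129 CPM in R860Q and from 56.9 to 185 CPM in EGFP tumours, with the highest level in EGFP R163. That library also had the highest level of prpf38a, a factor of spliceosome activation, at 21.2 CPM, against 6.22 to 12.1 CPM in R860Q tumours and 4.402 to 8.31 CPM in the other EGFP tumours.

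**Figure D3:**
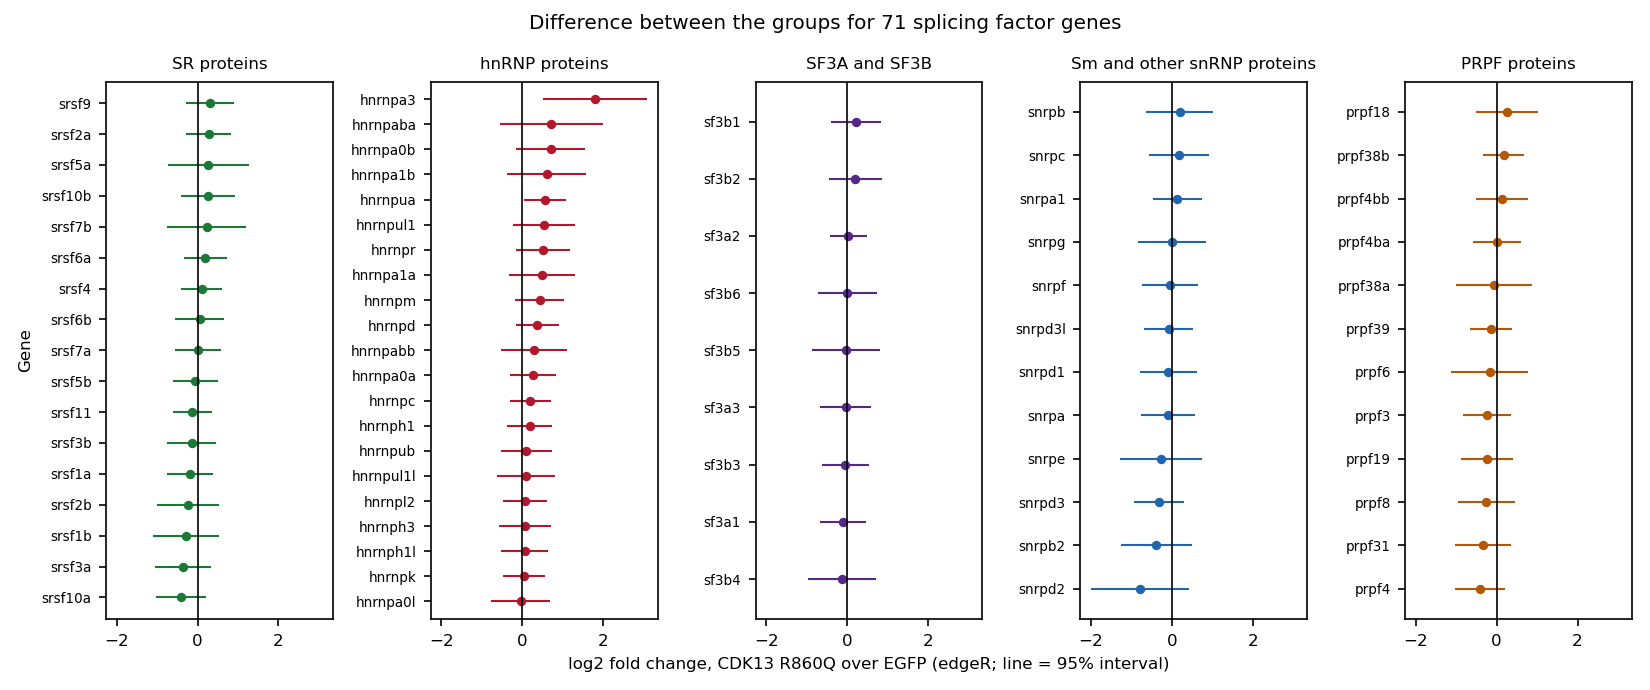
Log2 fold change (CDK13 R860Q over EGFP, edgeR) of 71 splicing factor genes with their 95% intervals, in 5 panels by family and ordered by size. In hnrnpa3 and hnrnpua the interval lies above 0, and in the other 69 genes shown it includes 0.

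Most splicing factor genes varied less between tumours of the same group than the median tested gene. The SD of log2 CPM within groups had a median of 0.41 over the 72 genes and 0.57 over all tested genes. It was 0.49 over the 7316 tested genes within the level range of the middle 80% of the members. In 57 of the 72 the SD was below the median of all genes, as it was in 4533 of the 7316 genes of that level range. Of the 171 other tested splicing genes 136 were below it, with a median SD of 0.44. The steadiest was sf3a2, coding for a subunit that helps to bind U2 to the branch point, with 49.96, 43.9, 52.6, 49.7 and 39.8 CPM in R860Q R157 to R161, against 53.6, 42.3, 46.7 and 42.3 CPM in EGFP R162 to R165. Its highest level was 1.35 times its lowest, and its SD of 0.16 was at the 0.396th percentile of all tested genes. The SR genes srsf11 and srsf4 followed, with SDs of 0.22 and 0.23. The least steady were hnrnpaba (1.004), snrpd2 (0.89) and srsf5a (0.76), and in each of these the EGFP tumours were the wider group. By family the median SD was 0.37 for SR proteins, 0.39 for hnRNP proteins, 0.41 for SF3A and SF3B, 0.42 for PRPF proteins and 0.50 for Sm and other snRNP proteins.

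**Figure D4:**
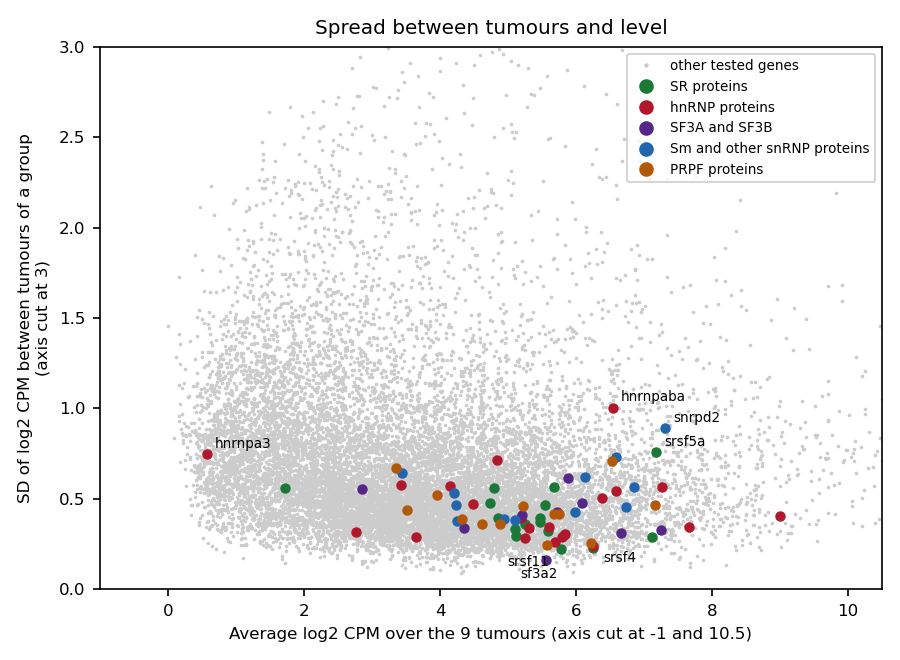
SD of log2 CPM between tumours of a group against the average log2 CPM of each tested gene, with other genes in grey and the splicing factor genes coloured by family. The median SD is 0.41 over the splicing factor genes and 0.49 over tested genes in the level range of their middle 80%. The genes hnrnpaba, snrpd2 and srsf5a lie above the other well-read members.

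Zebrafish carry many splicing factor genes as pairs that stem from the genome duplication of teleost fish, and their symbols end in a and b. Among the 72 genes 14 pairs of symbols differed only in that letter. Of these snrpa with snrpb and prpf38a with prpf38b are different proteins with similar names, which leaves 12 pairs of copies. The log2 ratio of the a to the b gene was compared between the groups with limma over all 1435 such pairs of the table. At an unadjusted p under 0.05 there were 0 of the 14, where 4.81% of all pairs passed, and none of the 14 or of all pairs passed after adjustment (smallest adjusted p 0.925 in both). In 0 of the 14 the groups did not overlap, against 1.6% of all pairs. The ratio varied within groups with a median SD of 0.59 on the log2 scale in the 14 pairs and of 0.76 in all pairs. Reads of near-identical stretches may be shared between copies, so each split is that of the authors' counting.

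The copies hnrnpaba and hnrnpabb had the ratio with the smallest p. Of their joint reads hnrnpaba held 37.0%, 49.4%, 45.7%, 29.9% and 41.6% in R860Q R157 to R161, against 38.6%, 13.6%, 40.9% and 22.4% in EGFP R162 to R165. EGFP R163 and R165 were again the low tumours, and the other EGFP tumours lay within the R860Q range. The log2 difference in the ratio was 0.86 ± 0.49 (SE; limma adjusted p = 0.925). The share of srsf10a in its pair was 43.0%, 48.9%, 32.2%, 46.5% and 66.0% in R860Q R157 to R161, against 73.6%, 50.4%, 56.9% and 50.4% in EGFP R162 to R165. Apart from R860Q R161 the R860Q tumours lay below the EGFP tumours, with a log2 difference of -0.64 ± 0.48 (SE; limma adjusted p = 0.938).

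In some pairs single tumours of both groups stood apart. The share of srsf1a was 55.3% in R860Q R160 and 54.7% in EGFP R164, against 73.7% to 80.9% in the other R860Q tumours and 72.8% to 82.2% in the other EGFP tumours. In those 2 tumours srsf1b was at 87.4 and 83.4 CPM, against 30.7 to 44.7 CPM in the other R860Q tumours and 36.9 to 54.5 CPM in the other EGFP tumours, while srsf1a was at 108 and 101 CPM, the lowest of each group. The share of srsf5a was 71.5% to 80.8% in R860Q tumours, against 79.3%, 64.5%, 77.7% and 50.03% in EGFP R162 to R165. The share of srsf7a was high everywhere, at 86.4% to 95.5% in R860Q and 90.4% to 94.2% in EGFP tumours.

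**Figure D5:**
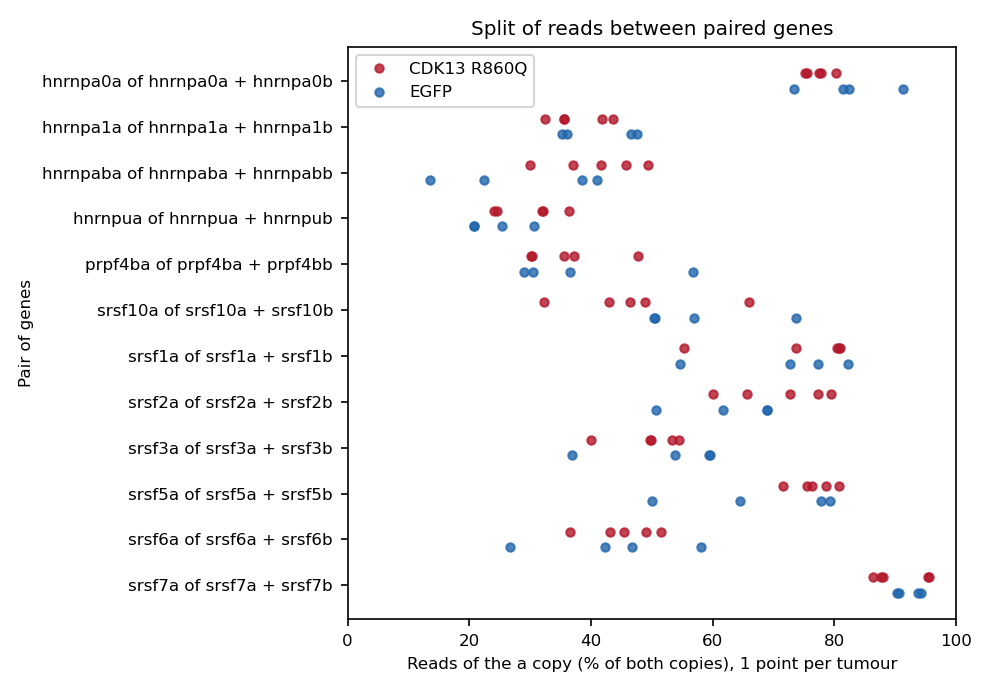
Share of reads that the a copy held of both copies, in percent, for the 12 pairs of duplicated splicing factor genes, with 1 point per tumour and CDK13 R860Q (red) above EGFP (blue). The groups overlap in every pair shown, and EGFP R163 and R165 give the 2 low points of hnrnpaba.

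No other gene of the splicing machinery passed the test either. Lists of 203 symbols held 171 tested genes, of which edgeR called 0 and DESeq2 0, and 99 had fold changes above and 72 below 0. At an unadjusted p under 0.05 in edgeR were 4 (2.34%), against 6.14% of all tested genes (1.99% higher and 4.15% lower). All 4 were higher in R860Q tumours: cactin, a regulator of splicing fidelity (0.88 ± 0.28 SE), acin1a, a partner of the exon junction complex (0.90 ± 0.32), ddx46, the helicase that remodels U2 (0.82 ± 0.32), and ewsr1a, an RNA-binding protein (0.49 ± 0.22). Their edgeR adjusted p-values were between 0.680 and 0.808.

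The gene acin1a had 125, 103, 123, 98.9 and 101 CPM in R860Q R157 to R161, against 75.8, 42.6, 86.6 and 32.2 CPM in EGFP R162 to R165. It was the 1 gene of the 171 (0.585%) whose groups did not overlap, against 1.43% of all tested genes (0.626% above and 0.804% below). EGFP R163 and R165 were its lowest tumours, as in hnrnpaba. For cactin the values were 24.8, 23.4, 30.5, 18.5 and 19.2 CPM in R860Q tumours, against 10.8, 11.7, 18.8 and 9.51 CPM in EGFP tumours, where EGFP R164 lay just inside the R860Q range.

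By list, the core spliceosome genes outside the symbol pattern had 50 of 80 log2 fold changes above 0, with 0.09 as the median. The SR kinases and SR-related factors had 14 of 24 and 0.04, with scaf11 at 0.56 ± 0.33 (SE) and the kinase dyrk1ab at -0.41 ± 0.30. Tissue regulators of splicing had 25 of 50 and -0.01, among them celf5a at 2.40 ± 1.14, which was at 45.2 CPM in R860Q R160 and at 0.426 CPM in R860Q R161. Genes of snRNP assembly and the Cajal body had 10 of 17 and 0.00. Among them were tgs1, which adds methyl groups to the cap of small nuclear RNAs, at -0.58 ± 0.27, and the Sm-methylating enzyme prmt5 at 0.43 ± 0.26. None of these passed in edgeR (adjusted p between 0.818 and 0.938).

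Markers of other cell types differed widely between the tumours, and none passed edgeR's adjusted test. DESeq2 called 1 T and NK lymphocyte, 1 macrophage and 2 erythrocyte markers after adjustment. At an unadjusted p under 0.05 in edgeR were 7 of the 10 tested T and NK lymphocyte markers and 4 of the 23 tested macrophage markers, all lower in R860Q tumours, against 6.14% of all genes. Of the 15 tested fibroblast markers 4 were lower and 1 was higher in R860Q tumours at that p, and 2 of the 11 tested erythrocyte markers were higher. Of 28 skeletal muscle markers in the files 21 were tested, and their summed level was 27.9 to 5313 CPM in R860Q and 11.4 to 1357 CPM in EGFP tumours, with tnnt3a and myhz1.2 at 0 in every tumour. All 21 had a log2 fold change above 0 (median 2.46), and 0 had an unadjusted p under 0.05. With the muscle score of each tumour in the fit, 0 of the 72 genes passed adjustment, 19 of 21 hnRNP genes and 31 of the 72 genes had fold changes above 0, against 20 and 42 without it. With that score 5 of 17 SR genes and 1 of 12 Sm and other snRNP genes were above 0, against 9 and 4 without it. Of the 23 tested macrophage markers 3, and of the 10 tested T and NK lymphocyte markers 1, had fold changes above 0, with median log2 fold changes of -0.75 and -1.59. Macrophage markers, 23 of 24 tested, summed to 831.6 to 2235 CPM in R860Q and 916 to 3934 CPM in EGFP tumours. T and NK lymphocyte markers, 10 of 17 tested, summed to 226 to 702 CPM in R860Q and 412 to 782 CPM in EGFP tumours. Most of their reads lay on runx3 (26659 over the 9 tumours) and nkl.2 (10561), against 136 to 677 on each other tested marker. With each marker weighted alike, their mean log2 CPM about its average was -1.735 to 0.146 in R860Q and -0.575 to 2.004 in EGFP tumours. R860Q R158, with the highest R860Q sum, was at -0.717 on that scale. Cell cycle genes, all 28 tested, summed to 495 to 1371 CPM in R860Q and 815 to 1248 CPM in EGFP tumours. Keratinocyte markers, 13 of 17 tested, summed to 2300.0 to 8959 CPM in R860Q and 1918 to 5082 CPM in EGFP tumours.

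The summed levels of fibroblast markers (15 of 17 tested) were 308 to 732 CPM in R860Q and 391 to 1495 CPM in EGFP tumours. Those of erythrocyte markers (11 of 12) were 209.8 to 2797 CPM in R860Q and 166 to 3470.3 CPM in EGFP tumours. Those of endothelial markers (12 of 14) were 44.4 to 72.8 CPM in R860Q and 36.1 to 106 CPM in EGFP tumours. Except for muscle, the part of these cells in the splicing factor levels was not tested, and in such bulk samples fewer cells of a type and less RNA per cell cannot be told apart.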

How the data were processed

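RNA of 9 melanomas was sequenced as 100-bp read pairs after ribosomal depletion, per the labels' protocols. The deposited values are raw read counts per gene symbol, made with Bowtie and HTSeq on genome build danRer10 (GRCz10), per the submitters' processing notes. Versions and the strand setting are not given in the sources used here. Reads of overlapping or antisense genes may therefore be mixed. In the RefSeq table of GRCz12tu, another build, all 72 symbols were found and 19 overlapped a protein-coding neighbour. Among the 19 were hnrnpa3 (nfe2l2a), hnrnpaba (nme5) and srsf3a (fkbp5 and rab44). No coordinates or sequences are given. The first line of each table holds no gene and was left out.

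Counts were scaled by TMM, filtered with filterByExpr (minimum count 10, total 15) and compared by edgeR 4.0.16 (R 4.3.3; quasi-likelihood, robust, group only, Benjamini-Hochberg at 0.05 over all tested genes). Log2 CPM used a prior count of 2. Pair ratios used limma 3.58.1 on log2 CPM. Alternatives were DESeq2 1.42.0, voom, other factors and filters, a muscle covariate and left-out tumours. Tests were tested on simulated data, with changes larger than nearly all those of the splicing factor genes. Smaller changes were not simulated. No 2 libraries agreed within sampling noise (lowest chi-square per degree of freedom 47.2).

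Members, families and lists were chosen with earlier results of these data known. Named were the 8 members of smallest p on each side, the member of highest CPM per family, the 3 steadiest and 3 least steady, a/b pairs (1 gene is not reported here) and, per other list, up to 3 called genes or otherwise the 2 of smallest p. Other genes (snrpe, snrpg, snrpd1, srsf9, prpf6, sf3a3, ddx46 among them) were chosen after their values were seen. Intervals and floors cover counting error only where so stated, since reads had no molecular identifiers.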

Additional observations from a re-analysis of the deposited data

Results flagged for a closer look

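In 7 of 104 groups of values examined 1 tumour stood far from the others of its group. The cut-off marks 1 in 20 groups of independent, normally distributed values. The genes were chosen partly for small p or for spread in these same tumours, so that rate is no yardstick here. In R860Q R161 hnrnpr was at 12.1 normalised CPM, against 28.5 to 29.0 CPM in the other R860Q tumours, and srsf10b at 13.6 CPM, against 31.2 to 34.0 CPM. In R860Q R160 srsf1b was at 87.4 CPM, against 30.7 to 44.7 CPM in the other R860Q tumours. In EGFP R162 srsf2a was at 71.7 CPM, against 41.5 to 45.004 CPM in the other EGFP tumours, and srsf5b at 63.1 CPM, against 42.2 to 45.8 CPM. These high values depend in part on the low TMM factor of EGFP R162 (0.65, against 1.09 to 1.25 in the other EGFP tumours). With DESeq2 size factors in its place the log2 fold changes were 0.263 for srsf2a and -0.059 for srsf5b. In the main fit they were 0.271 and -0.052. Before scaling, srsf2a held 293 and srsf5b 258 of its 6317580 counted reads, against 300 each of 5518472 in EGFP R164. In EGFP R165 hnrnpm was at 16.7 CPM, against 33.5 to 36.4 CPM. The summed level of the 13 PRPF genes was 781 CPM in EGFP R163, against 558 to 596 CPM in the other EGFP tumours.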

How the results depend on the processing

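No splicing factor gene passed adjustment under any of the 18 alternatives, and the smallest edgeR, DESeq2 or voom adjusted p among the 24 genes followed was 0.220. Genes at an unadjusted p under 0.05, 2 in the 72, numbered 1 with no filter on low counts, 5 without EGFP R162 and R164, and 0 to 4 when single tumours were left out. Of the other splicing genes there were 4, against 2 with the muscle score in the fit, 18 without EGFP R162 and R164, and 2 to 10 when single tumours were left out. The share of all tested genes at that p moved as well, from 6.14% in the main fit. It was 7.001% with no filter, 4.70% with the muscle score and 8.97% without EGFP R162 and R164. When single tumours were left out it was 4.19% to 9.78%. The changes in these counts are therefore not read as gains or losses of the splicing genes. Of all 72 splicing factor genes 42 had log2 fold changes above 0, against 55 without EGFP R162 and R164 and 30 without EGFP R163 and R165. Among the 24 genes followed, mostly chosen for a small p, directions turned in 20 of 428 log2 fold changes, in 9 genes. Genes outside these 24 turned as well, and the cause was not tested. For hnrnpa0l the value was 0.00245 with no filter, 0.12 with voom, 0.18 without EGFP R162 and R164, and -0.18 to 0.27 when single tumours were left out. Without EGFP R162 and R164 it was 0.51 for snrpd2, 0.0531 for snrpb2 and 0.0384 for srsf11. Without EGFP R163 and R165, added after seeing the data, it was -0.343 for srsf5a, 0.177 for prpf8, -0.0732 for hnrnpaba, -0.0724 for srsf4 and -0.0912 for sf3a2. With the muscle score it was -0.0222 for srsf4 and -0.0602 for sf3a2. Leaving out single tumours gave -1.07 to 0.17 for snrpd2, -0.0153 to 0.76 for srsf5a and -0.0113 to 0.11 for sf3a2. No paired analysis was possible because no replicate number occurs in both groups. With 5 and 4 tumours 46 of the 72 genes had intervals within a 2-fold difference.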

Other observations

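Over the splicing factor genes alone 32.1% of the variance lay on the first principal component. It set EGFP R162 (-4.63) apart from EGFP R163 (2.62) and EGFP R165 (2.79), with R860Q tumours at -1.87 to 1.202 between them and EGFP R164 at -1.27. The 72 genes held 0.444% ± 0.0970 of all counted reads in R860Q tumours and 0.445% ± 0.0800 in EGFP tumours (SD, n = 5 and 4).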
